A study of Mus musculus with 9 samples.

Results

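The 10 genes described here are H19 and 9 other imprinted genes known for their effects on growth: Igf2, Igf2r, Dlk1, Meg3, Peg3, Mest, Ndn, Plagl1 and Grb10. They were picked by symbol, each symbol was paired with 1 mouse Ensembl ID, and they make up 10 of the 53465 gene rows of the count tables. The list was drawn up with the levels of these genes in these libraries already known, so their levels and differences are given as a description, with no p-value printed for a member. How many of them passed a threshold is stated only beside the share of all genes that did, and supports nothing. Transcripts were read by RNA sequencing in 9 libraries of mouse heart. Every library is labelled as infarct border zone, the sham libraries too, although sham surgery is not labelled as including a ligation.

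All 9 libraries came from NOD-SCID mice, an immunodeficient strain. The sham group (3 libraries) had sham surgery, the ligation group (3 libraries) had a coronary artery tied off, and the cell group (3 libraries) had the same ligation and then received FOXO3-GE-MPCs. The labels used here give no age, no time after surgery, no species of origin for the implanted cells and no statement that libraries came from separate animals, so the spread between libraries may be technical in part. In cell replicates 2 and 3 the source label reads FOXO4 and FOXO5, whereas title and treatment read FOXO3 in all 3, and the grouping here rests on the titles. Sham replicates 1 and 2 share a name stem in their file headers, as do ligation replicates 2 and 3, and what the stem stands for is not stated.

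Imprinted genes are transcribed mainly from the copy inherited from 1 parent, and the parental copies differ in DNA methylation or chromatin marks laid down in the germ line. H19, a long non-coding RNA made from the maternal copy, and Igf2, a growth factor made from the paternal copy, lie side by side and use shared enhancers, and an insulator bound by CTCF decides which of them the enhancers reach. The IGF2 protein signals through the IGF1 and insulin receptors, whereas IGF2R binds it and carries it to lysosomes for breakdown. Many of these genes are abundant in the fetal heart and other fetal tissues and are turned down after birth.

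On GRCm38 (mm10), H19 (ENSMUSG00000000031) lies at chr7:142575529-142578143 on the minus strand. Igf2 (ENSMUSG00000048583) follows at chr7:142650766-142666816, also on the minus strand, 72.6 kb away. Dlk1 (ENSMUSG00000040856, chr12:109452823-109463336, plus strand) and Meg3 (ENSMUSG00000021268, chr12:109541001-109571726, plus strand) form a similar pair, 77.7 kb apart. The others stand in domains of their own: Igf2r (ENSMUSG00000023830) at chr17:12682406-12769664, Grb10 (ENSMUSG00000020176) at chr11:11930508-12038683, Peg3 (ENSMUSG00000002265) at chr7:6703892-6730431, Ndn (ENSMUSG00000033585) at chr7:62346569-62350262, Plagl1 (ENSMUSG00000019817) at chr10:13060504-13131694 and Mest (ENSMUSG00000051855) at chr6:30723547-30748465.

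Members of the list also serve as host transcripts of microRNAs, and these are the best-known short products of H19, Igf2, Mest and Meg3. Their mature sequences are shown because they are what each locus can make beside the long RNA measured here. They are taken from RefSeq on GRCm38.p6, 5′ to 3′, with the seed (bases 2 to 8) in capitals. The first pair lies in H19, on the minus strand of chromosome 7, with the 5p arm at chr7:142577112-142577133. The next pair lies in Igf2, the third in Mest and the last 3 in Meg3.
miR-675-5p: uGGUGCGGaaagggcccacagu
miR-675-3p: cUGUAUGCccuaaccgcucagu
miR-483-5p: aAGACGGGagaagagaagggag
miR-483-3p: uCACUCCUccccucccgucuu
miR-335-5p: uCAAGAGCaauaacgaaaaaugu
miR-335-3p: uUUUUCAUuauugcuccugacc
miR-770-5p: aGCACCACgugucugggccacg
miR-770-3p: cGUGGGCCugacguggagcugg
miR-1906: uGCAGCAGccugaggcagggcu
No seed is shared among these 9 microRNAs. The libraries do not measure mature microRNAs, and the gene rows of Mir675 and Mir770 held 0 counts in every library.

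Promoter windows of 300 bases (250 before to 50 after a gene start) were at hand for 9 of the 10 genes, as 16 windows. The window of Peg3 is shown because PLAGL1, a zinc finger protein encoded by another gene of the list, is known to bind GC-rich elements, and Peg3 held the only match among the 16 windows to the letters GGGGCCCC, which read the same on both strands. The match starts at position -201, and 1.08% of all 32851 RefSeq windows hold those letters. The richest Igf2 window is shown for its CpG content: it holds 24 CpG, and 20.0% of all windows hold at least as many. The other Igf2 windows hold 2, 7 and 14 CpG, and windows of Grb10 (45), Igf2r (34) and Plagl1 (26) hold more than the one shown. CpG is in capitals, and both genes are on the minus strand.
Peg3, chr7:6730370-6730669: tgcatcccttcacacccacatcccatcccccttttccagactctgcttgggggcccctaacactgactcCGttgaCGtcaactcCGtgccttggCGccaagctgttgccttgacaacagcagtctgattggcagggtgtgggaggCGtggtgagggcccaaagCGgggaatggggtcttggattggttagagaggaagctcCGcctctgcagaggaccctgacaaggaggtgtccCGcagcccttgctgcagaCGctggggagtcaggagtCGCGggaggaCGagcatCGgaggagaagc
Igf2, chr7:142658755-142659054: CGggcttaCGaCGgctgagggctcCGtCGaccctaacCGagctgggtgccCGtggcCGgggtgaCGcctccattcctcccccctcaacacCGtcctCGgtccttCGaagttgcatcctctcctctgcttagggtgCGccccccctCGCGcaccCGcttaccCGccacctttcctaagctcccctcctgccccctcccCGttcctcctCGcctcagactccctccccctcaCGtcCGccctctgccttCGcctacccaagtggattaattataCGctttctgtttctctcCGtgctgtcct
For each of the 9 genes the window richest in CpG lay above the median of all windows, which was 7 CpG. Several genes had more than 1 window, so the richest is a best of several. Methylation of these windows was not measured here.

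The libraries held 4549268 to 7515052 gene counts, and levels are given as CPM, counts divided by each library's own size after TMM scaling. On that scale 3 counts, the lowest level taken as detectable, corresponded to 0.375 to 0.639 CPM. Mitochondrially encoded genes took 19.1% to 19.9% of gene counts in sham, 12.5% to 13.9% in ligation and 14.3% in each cell library. Scaling by library totals in place of TMM factors moved the median of all genes by 0.19 (log2) for ligation against sham, by -0.03 for cells against ligation and by 0.16 for cells against sham.

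H19 was the member that differed most clearly between the groups. It stood at 46.1, 42.2 and 46.8 CPM in the 3 sham libraries, at 13.6, 16.8 and 14.3 CPM in the ligation libraries, and at 10.6, 9.71 and 11.4 CPM in the cell libraries. All 3 sham libraries lay far above the other 6, and every cell library lay below every ligation library, so no 2 groups overlapped. The means were 45.0 ± 2.50, 14.9 ± 1.67 and 10.6 ± 0.837 CPM (SD, n = 3 each). H19 in ligated hearts was thus at 33.1% of the sham level, and at 23.5% with implanted cells. As log2 differences, H19 was at -1.59 (SE 0.11) in ligation against sham, at -2.09 (SE 0.12) in cells against sham and at -0.50 (SE 0.13) in cells against ligation.

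The distance of H19 from sham was as large in each fit that left out 1 library, between -1.68 and -1.54 for ligation and between -2.14 and -2.03 for cells. The smaller step from ligation to cells lay between -0.56 and -0.41 in those fits, with -0.44 without cell replicate 2 and -0.41 without ligation replicate 2. With cell replicate 1, whose labels all name FOXO3, as the only cell library it was -0.49. Summing libraries that share a header stem left the 3 differences at -1.63, -0.49 and -2.12.

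**Figure D1:**
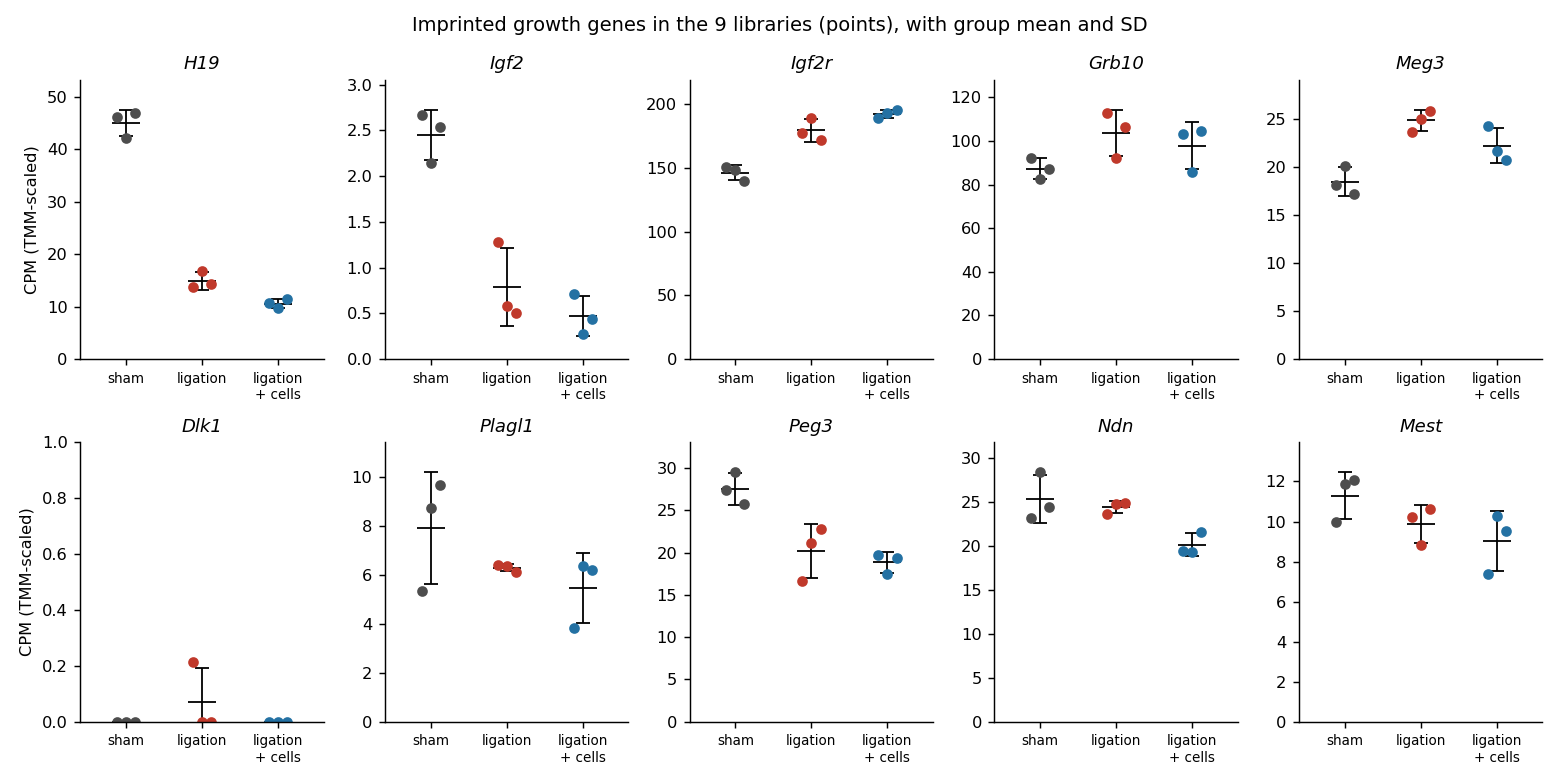
Level of each of the 10 imprinted growth genes in CPM (TMM-scaled, linear axes from 0) in the 9 libraries, as points, with the mean and SD of each group of 3 as lines. H19 and Igf2 lie highest in sham, Igf2r and Meg3 lie lowest there, and Dlk1 is at 0 in 8 of the 9 libraries.

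Igf2, the growth factor beside H19, was barely detected. It had 15, 13 and 16 counts in sham, 6, 4 and 4 in ligation and 5, 2 and 3 with cells, which correspond to 2.67, 2.14 and 2.54 CPM, then 1.28, 0.579 and 0.500 CPM, then 0.709, 0.277 and 0.432 CPM. Sham did not overlap with either ligated group, whereas the 2 ligated groups overlapped. Only the sham libraries carried the gene past the filter on low counts, so once tested it had to be higher there, and its ratios are given as a description of the counts. Summed over libraries, 44 counts in sham against 14 in ligation gave a ratio of 3.43-fold lower (95% exact interval 1.84 to 6.77), and 10 counts with cells gave 5.19-fold lower than sham (2.57 to 11.6). Between the ligated groups the ratio was 1.51-fold lower with cells, with an interval of 0.625 to 3.81 that covers no difference. These intervals cover counting error only.

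Counts of the 2 neighbours can be set against each other within a library. For each Igf2 count there were 17.3 to 19.7 H19 counts in sham, 10.7 to 29.0 in ligation and 15.0 to 35.0 with cells, ranges that overlap and rest on as few as 2 Igf2 counts. The 64.5% of Igf2 exon bases that lie in other annotated genes bear on this: 62.8% are shared on the same strand with Gm49394, a gene model whose row held 0 counts, and reads there may have been set aside as ambiguous.

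Igf2r, the receptor that clears IGF2, ran the other way. Its level was 151, 148 and 139 CPM in sham, 177, 189 and 172 CPM in ligation and 189, 193 and 195 CPM with cells. Sham lay below every ligated library, and the 2 ligated groups overlapped only at their edges. The log2 difference was 0.30 (SE 0.06) in ligation and 0.40 (SE 0.06) with cells, both against sham, and 0.10 (SE 0.05) between the ligated groups. Grb10, an adaptor that binds the insulin and IGF1 receptors and dampens their signal, stood at 92.0, 82.5 and 87.1 CPM in sham, 113, 92.3 and 106 CPM in ligation and 103, 85.6 and 105 CPM with cells. Its lowest ligation library only just cleared the highest sham library, and the cell group overlapped with both. The Grb10 difference of 0.25 (SE 0.08) between ligation and sham ranged from 0.19 to 0.33 when single libraries were left out.

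Meg3, the maternally expressed non-coding RNA of the Dlk1 domain, was at 18.2, 20.1 and 17.1 CPM in sham, 23.7, 25.0 and 25.9 CPM in ligation and 24.3, 21.6 and 20.7 CPM with cells. Every sham library lay below all 6 ligated ones, and the cell group reached into the ligation range. Its log2 difference was 0.43 (SE 0.11) for ligation against sham and 0.27 (SE 0.11) for cells against sham. Dlk1, its partner and a membrane protein related to Notch ligands, had 1 count in ligation replicate 1 and 0 in the other 8 libraries, and was not tested. Of the other RNAs of that domain, Rian stood at 19.8 ± 0.884, 19.3 ± 0.968 and 22.5 ± 5.72 CPM in sham, ligation and cells (SD, n = 3) and passed the test in no comparison, and neither did Mirg.

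Peg3, a zinc finger protein made from the paternal copy, was lower in ligated hearts. It stood at 27.4, 29.5 and 25.7 CPM in sham, 16.6, 21.1 and 22.7 CPM in ligation and 19.7, 17.5 and 19.3 CPM with cells. No ligated library reached the sham range, and the 2 ligated groups overlapped. The log2 difference was -0.43 (SE 0.12) in ligation and -0.55 (SE 0.12) with cells. With library totals as the scale the first of these was -0.24. Plagl1, the zinc finger factor named above, varied most within sham, at 5.34, 8.73 and 9.68 CPM, against 6.39, 6.37 and 6.13 CPM in ligation and 3.83, 6.38 and 6.19 CPM with cells. Sham replicate 1 lay below all ligation libraries, so the Plagl1 groups overlapped.

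Ndn, the gene of necdin, a MAGE-family protein that restrains cell division, overlapped between sham and ligation and was lower with cells. Its values were 23.1, 28.3 and 24.4 CPM in sham, 23.7, 24.7 and 24.9 CPM in ligation and 19.4, 19.3 and 21.6 CPM with cells. The cell group lay below both others without overlap, at a log2 difference of -0.28 (SE 0.11) from ligation and -0.33 (SE 0.11) from sham. The latter lay between -0.39 and -0.25 without single libraries and was -0.18 with library totals as the scale. Mest, which encodes a hydrolase-like protein of the endoplasmic reticulum, stood at 9.97, 11.9 and 12.1 CPM in sham, 10.2, 8.83 and 10.6 CPM in ligation and 7.38, 10.3 and 9.51 CPM with cells, and its groups overlapped in each comparison. Of Mest exon bases 23.1% lie opposite to another gene on the other strand, and 9.15% of H19 and 8.29% of Meg3 exon bases are shared with other annotated genes. The counting strand is not given in the sources used here, so reads from either strand cannot be told apart.

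**Figure D2:**
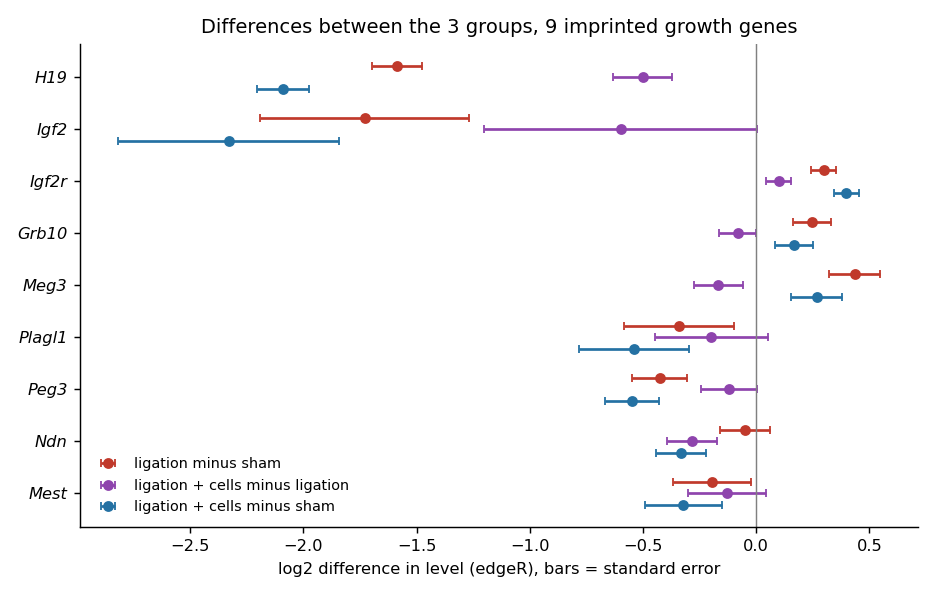
Log2 difference in level for the 9 imprinted growth genes that were tested, with standard errors from edgeR as bars, for ligation minus sham, cells minus ligation and cells minus sham. H19 and Igf2 lie furthest to the left, at -1.59 and -1.73 for ligation minus sham, and Igf2r, Grb10 and Meg3 lie to the right of 0 against sham.

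Over the whole list, 6 of the 9 tested members passed the threshold between ligation and sham, 3 higher (Igf2r, Grb10, Meg3) and 3 lower (H19, Igf2, Peg3), where 38.2% of all 13825 tested genes did (20.1% higher and 18.0% lower). Groups did not overlap for 6 of the 9, against 47.6% of all genes. Between cells and sham 5 of 9 passed (Igf2r higher, H19, Igf2, Peg3 and Ndn lower), against 40.9% of all genes (21.0% higher and 20.0% lower), and 6 did not overlap, against 49.8%. Between cells and ligation H19 alone passed, against 9.87% of all genes (4.19% higher and 5.69% lower), and H19 and Ndn did not overlap, against 27.2%. Because the list was chosen on these libraries, and Igf2 passed the filter only where it was high, nothing is read from these counts. Some calls also depended on single libraries or on the setting: Grb10 between ligation and sham was lost in 4 of the 9 fits without 1 library, Peg3 there with library totals, and H19 between cells and ligation without cell replicate 2 or ligation replicate 2. Ndn between cells and sham was lost without cell replicate 1 (-0.31), cell replicate 2 (-0.30) or sham replicate 2 (-0.25), with DESeq2 and with library totals. On library totals the split between cells and sham was 3 higher and 3 lower in place of 1 and 4. The median log2 difference of the 9 was -0.19, -0.33 and -0.17 in these comparisons, where the medians of all genes were 0.01, -0.01 and 0.00. With library totals the members' medians were -0.01, -0.18 and -0.20, and those of all genes 0.20, 0.15 and -0.03. The comparisons share groups, so they are not independent of one another.

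Sorted by the copy that is known to be active, the list divided unevenly in the comparisons with sham. All 5 tested paternally expressed members (Igf2, Peg3, Plagl1, Mest, Ndn) had log2 differences below 0 between ligation and sham, from -1.73 to -0.05. Igf2, which gives the -1.73, passed the filter only through sham, so its sign against sham was fixed once it was tested. Dlk1, also paternally expressed, was not tested. Of the 4 maternally expressed ones, H19 was below 0 and Igf2r, Grb10 and Meg3 were above it. With library totals as the scale, which moved the median of all genes up by 0.19, Ndn turned to 0.14, Mest came to -0.01 and Peg3 to -0.24. Ndn also turned to 0.04 without sham replicate 2. Between cells and sham, all 5 paternally expressed members were below 0 and 3 of the 4 maternally expressed ones above it. Between cells and ligation the list did not divide in this way: all 5 paternally expressed members and 3 of the 4 maternally expressed ones were below 0. This sorting was made after the values were seen, and allele-specific expression was not measured.

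Per kilobase of exon, which allows levels of different genes to be set side by side, H19 was the most abundant member in sham at 18.3 ± 1.02 CPM per kb (SD, n = 3). It was followed by Igf2r at 15.7 ± 0.635, Grb10 at 9.60 ± 0.522 and Ndn at 6.85 ± 0.732 CPM per kb. Mest (2.86 ± 0.293) and Peg3 (2.07 ± 0.142) came next, Meg3 and Plagl1 did not differ beyond their spread (1.02 ± 0.083 and 1.01 ± 0.292), and Dlk1 was not detectable. Igf2, at 0.428 ± 0.048 CPM per kb, is given no place in the order, because its length includes the 64.5% of exon bases shared with other genes. In ligation Igf2r led at 19.3 CPM per kb, and H19, at 5.54 to 6.82 in single libraries, fell in with Ndn at 6.40 to 6.73. With cells the mean of H19 was 4.30 CPM per kb, below that of Ndn at 5.44.

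Across the 9 libraries the genes whose log2 CPM followed H19 most closely were Flt1 (Pearson r = 0.995), Kcnj8 (0.993), Gm43597 (0.992), Timp4 (0.992) and Rasgrp2 (0.992). Flt1 encodes a VEGF receptor of endothelium, Kcnj8 (also on the smooth muscle and pericyte marker list used here) a potassium channel subunit, and Timp4 a metalloproteinase inhibitor. Their means were less reduced relative to sham than that of H19: Timp4 averaged 156, 74.5 and 52.0 CPM in sham, ligation and cells, Kcnj8 72.0, 40.6 and 32.5 CPM, and Flt1 403, 324 and 307 CPM. These r values describe points that share 3 groups, so they mostly reflect group means and carry no p. The same measure for Igf2 gave Mrto4 (0.984), Abca6 (0.982), Scara5 (0.982), H2-K2 (0.982) and Cenpv (0.981), on very few Igf2 counts. Among the members, r with H19 was 0.917 for Igf2, 0.891 for Peg3 and -0.948 for Igf2r.

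Most markers of the cells of the vessel wall were lower in ligated hearts. Summed endothelial markers (Pecam1, Cdh5, Kdr, Tie1, Emcn) lay at 1713 to 1811 CPM in sham, 1140 to 1213 CPM in ligation and 1256 to 1288 CPM with cells, and all 5 passed as lower in ligation, where 18.0% of all genes did. Summed smooth muscle and pericyte markers lay at 1503 to 1552, 1061 to 1090 and 1070.0 to 1113 CPM, with 4 of the 5 tested lower in ligation and Cspg4 higher. Tagln, also on that list, had too few counts to be tested, so it adds little to this sum. Of its exon bases 67.9% lie opposite another gene. Summed cardiomyocyte markers were at 80.0% of sham in ligation, fibroblast markers at 159.7% and macrophage markers at 147%, the last at 41.9% of ligation with cells. These sums follow their abundant members: among cardiomyocyte markers Ryr2 passed as higher, and among the 8 fibroblast markers 5 passed as higher, Pdgfra passed as lower, and the median log2 difference was 0.26. Less abundant lists moved further: summed mesothelial markers went from 33.0 to 44.3 CPM in sham to 228 to 269.9 CPM in ligation, adipocyte markers from 4.45 to 8.41 CPM to 60.6 to 74.8 CPM, and cartilage markers from 17.3 to 21.4 CPM to 262 to 281 CPM. The cartilage sum was carried by Comp (16.4 and 267 CPM), while Chad stood at 1.38 and 0.402 CPM. With cells the mesothelial, adipocyte and cartilage sums were at 76.8%, 96.0% and 94.7% of ligation. Summed markers of fast skeletal muscle averaged 4.81, 10.3 and 2.79 CPM in sham, ligation and cells. No marker was at 0 in all libraries. Set against the endothelial sum, H19 was at 0.490 of its sham ratio in ligation and at 0.325 with cells, and against the smooth muscle and pericyte sum at 0.467 and 0.331. Against the cardiomyocyte sum it was at 0.413 and 0.310, and against the fibroblast sum at 0.207 and 0.151. In these bulk samples fewer cells of a type and less RNA per cell cannot be told apart, and the part of cell composition in the H19 difference was not tested.

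**Figure D3:**
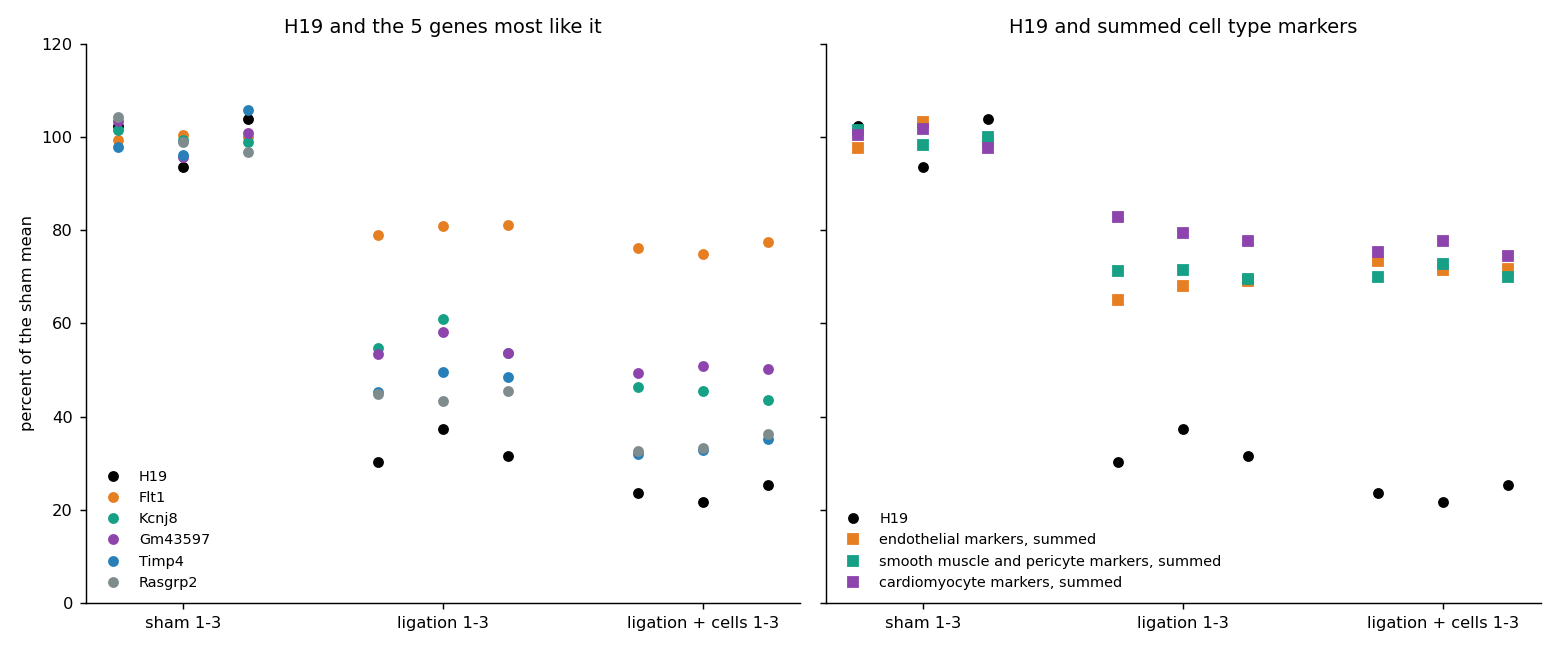
Level as a percentage of the sham mean (linear axis from 0) in each of the 9 libraries, for H19 and the 5 genes most like it on the left and for H19 and 3 summed marker lists on the right. H19 lies lowest in all 6 ligated libraries, with a mean at 33.1% of sham in ligation and 23.5% with cells, while the 3 marker sums have means between 67.3% and 80.0% of sham.

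Other imprinted genes were taken as a list of 54, of which 36 had enough counts to be tested. Between ligation and sham 13 of the 36 passed the threshold (36.1%, close to the 38.2% of all genes), 4 of them higher and 9 lower, with a median log2 difference of -0.16. With library totals as the scale the split was 10 higher and 4 lower and the median 0.03, while the median of all genes moved alike, from 0.01 to 0.20. Calls that held in every fit without 1 library and in each other setting run on all 3 cell libraries numbered 6: Cdkn1c, Cd81, Ppp1r9a and Peg13 lower, Gatm and Osbpl5 higher.

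Cdkn1c encodes p57, an inhibitor of cyclin-dependent kinases, and lies 880.2 kb from H19. It fell from 24.4, 21.4 and 28.3 CPM in sham to 13.8, 13.7 and 15.1 CPM in ligation and stood at 14.3, 17.3 and 11.4 CPM with cells. Both ligated groups lay below sham without overlap, at log2 differences of -0.79 (SE 0.15, adjusted p = 0.000234) and -0.78 (SE 0.15, adjusted p = 0.000207). Of its exon bases 30.7% are shared with another gene, so its count is uncertain. Kcnq1ot1, the non-coding RNA that silences Cdkn1c in cis, was lower as well, at 5.88 ± 2.95, 3.19 ± 0.181 and 2.56 ± 0.755 CPM (SD, n = 3), but its adjusted p of 0.0470 in ligation was lost in 5 of the 9 fits without 1 library and with DESeq2, limma-voom, the replicate block, summed header stems and library totals. Without sham replicate 1 the Kcnq1ot1 difference was -0.39 in place of -0.86. Cd81, a tetraspanin of the same region, fell from 388 ± 7.91 to 306 ± 4.37 CPM (adjusted p = 3.24e-06). Osbpl5, also of that region, rose from 24.4 ± 2.80 to 32.9 ± 0.471 CPM (adjusted p = 0.00119).

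Elsewhere, Gatm, an enzyme of creatine synthesis that is imprinted in placenta, stood at 9.43, 5.44 and 8.57 CPM in sham, 19.6, 23.6 and 20.8 CPM in ligation and 11.3, 10.8 and 11.1 CPM with cells. It had the largest rise in ligation among the 36 tested other imprinted genes that passed, and it fell again with cells, where its libraries lay between those of the 2 other groups. The log2 differences were 1.46 (SE 0.17, adjusted p = 5.57e-07) and -0.95 (SE 0.15, adjusted p = 0.000247). Peg13, a non-coding RNA, fell from 96.8 ± 5.27 to 66.7 ± 4.53 CPM in ligation (adjusted p = 2.36e-06). Ppp1r9a, a regulator of protein phosphatase 1, fell from 16.3 ± 1.07 to 10.2 ± 0.558 CPM (adjusted p = 0.00153). Calls that did not hold without each library were Atp10a (log2 difference 0.49, lost in all 9 fits), Copg2 (0.32, lost in 2), Slc38a4 (-0.62, lost in 5), Mcts2, Blcap and Commd1.

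Between cells and ligation 4 of the 36 passed (11.1%, against 9.87% of all genes): Kcnq1, Zrsr1 and Peg13 higher and Gatm lower. Only Gatm held in every fit without 1 library. Without single libraries the adjusted p was lost in 4 fits for Kcnq1, in 4 for Zrsr1 and in 7 for Peg13, and with library totals the split was 1 higher and 1 lower. Between cells and sham 15 of 36 passed (41.7%, against 40.9%), 6 higher and 9 lower, or 13 higher and 4 lower with library totals. Airn, the antisense RNA that silences Igf2r in cis, was among them at 14.1 ± 2.26 CPM in sham and 9.63 ± 1.30 CPM with cells (log2 difference -0.55, adjusted p = 0.00968), a call lost without sham replicate 3 (-0.42) and with library totals (-0.39). Kcnq1ot1 was at -1.19 (adjusted p = 0.00790; -0.72 and not passed without sham replicate 1), Ppp1r9a at -0.83 (adjusted p = 0.000196) and Mcts2 at -0.59 (adjusted p = 0.0184; lost without cell replicate 3 or sham replicate 2, and with library totals at -0.44). Slc22a18, which passed the filter on low counts only through libraries with ligation, was at 1.01 ± 0.216 CPM in sham and 2.59 ± 0.883 CPM with cells. Of the 15 calls between cells and sham, 7 held in every fit without 1 library. The calls of Slc22a18, Atp10a, Blcap, Commd1 and Gatm were also lost in at least 1 such fit. Copg2, which overlaps Mest, rose by 0.53 (SE 0.10, adjusted p = 0.000171), with 17.8% of its exon bases shared.

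**Figure D4:**
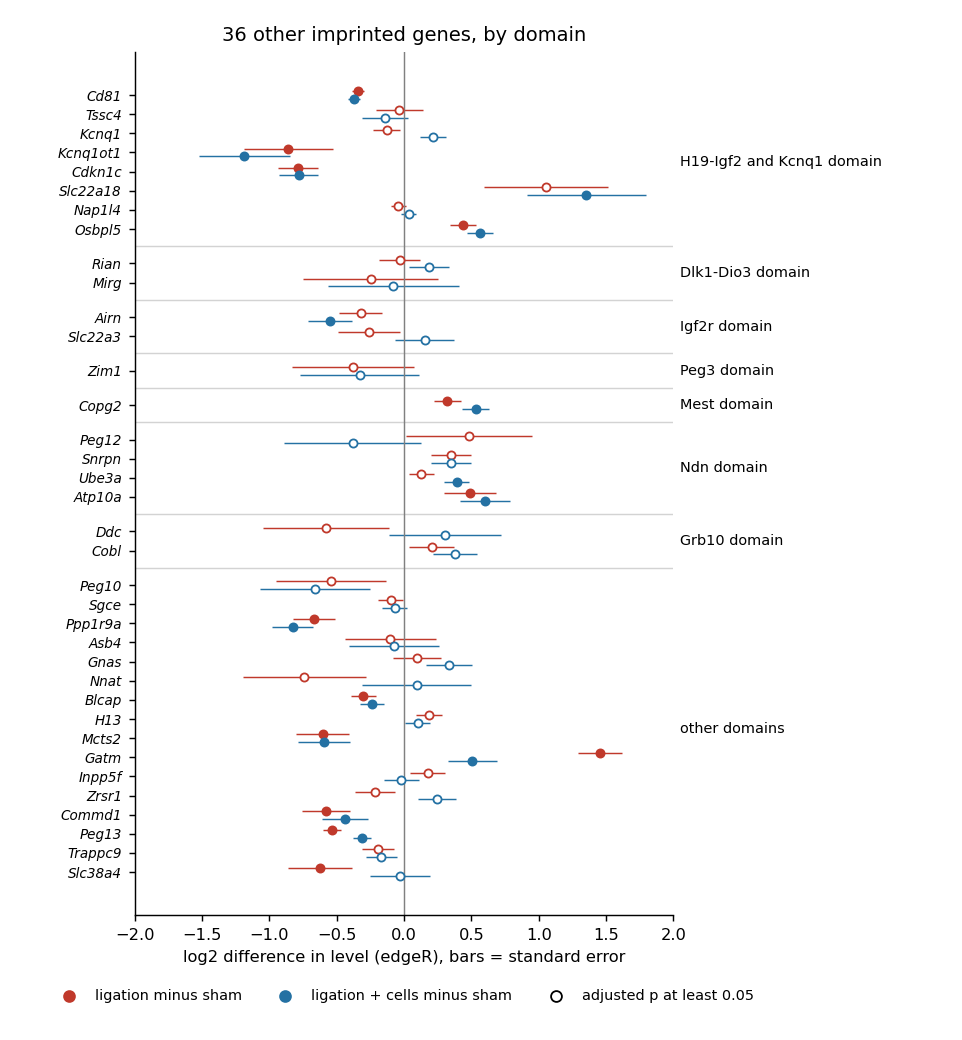
Log2 difference from sham in ligation (red) and with cells (blue) for the 36 tested genes of the list of other imprinted genes, ordered by domain, with standard errors from edgeR as bars and open symbols for an adjusted p of at least 0.05. Genes of 1 domain lie on both sides of 0: in the H19-Igf2 and Kcnq1 domain Cdkn1c lies at -0.79 and Osbpl5 at 0.44 in ligation.

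Of 19 listed partners of IGF signalling 15 were tested, and 14 passed between ligation and sham (93.3%, against 38.2% of all genes), 13 higher and Grb14 lower, with a median log2 difference of 0.59. This list too was chosen with earlier results of these libraries known, so the count is no independent evidence of a direction. It lay between 11 and 14 without single libraries: Insr was lost in 7 of the 9 fits, Igfbp2 in 4 and M6pr in 1 (0.19 without sham replicate 1). Of the 14, 10 held in all of those fits and in the other settings. Igf1, the other IGF ligand, rose from 28.0 ± 4.35 to 42.3 ± 2.42 CPM (log2 difference 0.59, adjusted p = 0.000141) and its receptor Igf1r from 38.7 ± 2.18 to 49.8 ± 1.73 CPM (0.36, adjusted p = 0.00103). Igf2 itself was lower in the same libraries, as given above. Binding proteins hold IGF in the tissue or keep it from its receptors. Of the 6 tested, Igfbp3, Igfbp4, Igfbp5, Igfbp6 and Igfbp7 rose in every fit, and Igfbp2 is treated apart. With the fibroblast marker sum at 159.7% of sham in ligation, the part of composition in these rises was not tested.

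Igfbp5 had the largest rise among the well-counted binding proteins. It stood at 233, 211 and 209 CPM in sham, 524, 560.4 and 594 CPM in ligation and 402, 389 and 408 CPM with cells. The 3 groups did not overlap, with ligation highest and cells in between. The log2 difference was 1.36 (SE 0.06, adjusted p = 8.07e-14) for ligation against sham and -0.49 (SE 0.05, adjusted p = 2.26e-06) for cells against ligation. Igfbp3 followed the same order at 69.1 ± 4.40, 133 ± 4.20 and 97.5 ± 5.37 CPM, with -0.45 (SE 0.06, adjusted p = 6.67e-05) between cells and ligation, and Igfbp4 at 276 ± 9.74, 362 ± 2.37 and 309 ± 3.94 CPM with -0.23 (SE 0.05, adjusted p = 0.00205). Igfbp6, which binds IGF2 in preference to IGF1, rose from 53.0 ± 1.74 to 127 ± 1.50 CPM in ligation (adjusted p = 1.55e-12) and stood at 120.3 ± 3.04 CPM with cells. Igfbp2 passed the filter on low counts only through the cell libraries, and its sham libraries held 2, 3 and 1 counts, so no fold is given.

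Downstream of the receptors, Irs2, a docking protein of insulin and IGF1 receptors, rose in both steps. It was at 5.34, 7.25 and 6.67 CPM in sham, 11.7, 13.7 and 17.0 CPM in ligation and 25.2, 21.2 and 20.6 CPM with cells. No 2 groups overlapped, at log2 differences of 1.16 (SE 0.18, adjusted p = 2.90e-05) and then 0.63 (SE 0.15, adjusted p = 0.00671). Irs1 rose from 5.64 ± 0.684 CPM in sham to 11.0 ± 1.67 CPM with cells (0.95, adjusted p = 0.000429; 0.66 and not passed with cell replicate 1 as the only cell library), with 30.9% of its exon bases shared with other genes. Grb14, an adaptor related to Grb10, fell from 173 ± 8.87 to 147 ± 6.79 CPM in ligation (-0.23, adjusted p = 0.00288), a change that was -0.05 with library totals and did not pass. Between cells and ligation 4 of the 15 passed (26.7%, against 9.87%), Irs2 higher and Igfbp3, Igfbp4 and Igfbp5 lower, and all 4 held in every fit without 1 library. With cell replicate 1 as the only cell library Igfbp4 was at -0.23 and no longer passed. Between cells and sham 13 of 15 passed (86.7%, against 40.9%), 12 higher and Grb14 lower. The 12 include Igfbp2, whose direction there was favoured by the filter. Igf1r was lost there without cell replicate 3 (0.21) or sham replicate 2 (0.21) and with DESeq2, and Grb14 without sham replicate 1 (-0.16) and with library totals (-0.03).

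**Figure D5:**
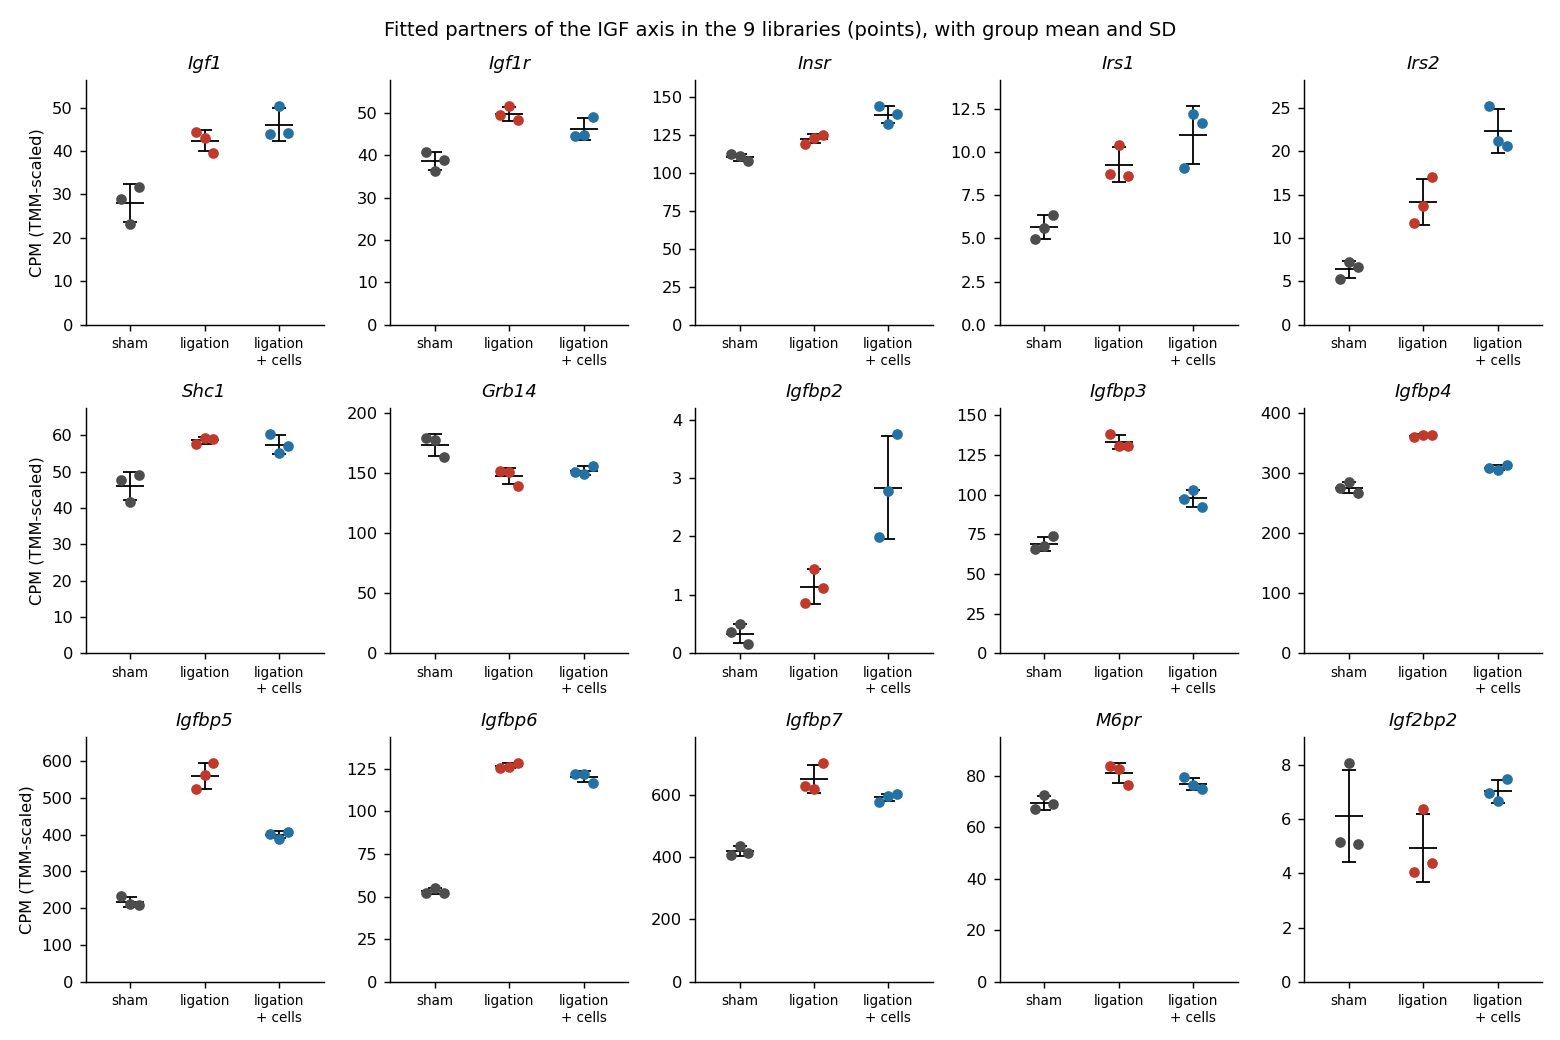
Level in CPM (TMM-scaled, linear axes from 0) of the 15 tested partners of IGF signalling in the 9 libraries, as points, with the mean and SD of each group of 3 as lines. Igfbp3, Igfbp4 and Igfbp5 lie highest in ligation and in between with cells, and Irs2 rises from 6.42 CPM in sham through 14.2 CPM in ligation to 22.4 CPM with cells.

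Of 11 listed proteins that set or keep imprints 9 were tested, and 2 passed between ligation and sham (22.2%, against 38.2% of all genes), both lower. With library totals the split was 2 higher and 1 lower and the median 0.08 in place of -0.11, a shift like that of all genes. Zfp445, a zinc finger protein that protects methylation at imprinted regions, fell from 80.1, 67.5 and 84.9 CPM in sham to 50.3, 57.4 and 52.0 CPM in ligation, and stood at 57.3, 53.4 and 57.9 CPM with cells. Each ligated library lay below each sham library, at log2 differences of -0.54 (SE 0.08, adjusted p = 2.80e-05) and -0.46 (SE 0.08, adjusted p = 0.000116). Dnmt1, the maintenance DNA methyltransferase, passed at -0.30 in ligation (adjusted p = 0.0345) and at -0.51 with cells (adjusted p = 0.000996). The call in ligation was lost in 4 of the 9 fits without 1 library, with DESeq2, with summed header stems and with library totals (-0.12). Ctcf, which encodes the insulator protein of the H19 and Igf2 domain, did not pass: it stood at 54.6 ± 7.03, 51.5 ± 3.66 and 52.2 ± 4.70 CPM in sham, ligation and cells.

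Between cells and ligation 2 of these 9 passed (22.2%, against 9.87%), both lower. Trim28, the corepressor recruited by zinc finger proteins such as ZFP445, went from 75.1 ± 5.30 to 62.9 ± 2.35 CPM (adjusted p = 0.0281). Uhrf1, which guides DNMT1 to replicated DNA, went from 4.47 ± 1.13 to 1.85 ± 0.742 CPM (adjusted p = 0.0204). Neither held in every fit without 1 library. Summed markers of dividing cells, in which Uhrf1 is mostly made, lay at 21.7 to 24.6 CPM in ligation and 6.19 to 7.77 CPM with cells, and their part in the Uhrf1 difference was not tested. Between cells and sham 3 of 9 passed (33.3%, against 40.9%), Zfp445, Dnmt1 and Trim28, all lower. The Trim28 call there (-0.24) was lost without cell replicate 2 (-0.21), sham replicate 2 (-0.20) or sham replicate 3 (-0.21), and was -0.08 with library totals.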

How the data were processed

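TRIzol served for RNA extraction and a NEBNext Ultra RNA kit for the libraries, per the labels' protocols. For each library the authors deposited 1 table of whole-number read counts by gene, not normalized, on build mm10 per the submitters' processing notes. The aligner, counter, strand setting and annotation release are not given in the sources used here. Each file closes with lines named as htseq-count names them: reads outside features (4.14% to 4.91% of reads) and ambiguous reads (8.09% to 8.72%) were left out of library sizes, and the lines for reads of low quality, without alignment or without a unique one are 0 throughout. GENCODE annotation (GRCm38) gave symbols for 53274 of 53465 IDs, positions and exon lengths.

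From these counts, genes were filtered with filterByExpr and scaled with TMM factors, and 1 edgeR 4.0.16 quasi-likelihood model (R 4.3.3) with a mean per group was fitted over all 9 libraries, with 6 residual degrees of freedom. Tests are two-sided, p-values were adjusted over 13825 tested genes (Benjamini-Hochberg), and an adjusted p under 0.05 counts as passed. SE is the size of the log2 difference divided by the square root of its F statistic. Libraries held 4549268 to 7515052 gene counts. The main fit was also run on simulated counts in which few genes changed, in equal parts up and down. That does not test the scaling in data where as many genes differ as here. The members and all lists were chosen with earlier results of these data known. Named genes are all members and, per list, comparison and direction, up to 4 called genes with the largest differences, a mean of at least 1 CPM and groups that do not overlap. Cd81, Peg13 (ligation against sham), Airn, Igf1, Igf1r, Igfbp4 (levels), Dnmt1 in ligation, Insr, M6pr, Ctcf, Rian, Mirg and single cell type markers were named outside that rule, after their values were seen. Alternatives were other scalings, no filter, 2-group fits, a replicate block, DESeq2 1.42.0, limma-voom (limma 3.58.1) and leaving out each library. Summing libraries with a shared header stem, and keeping cell replicate 1 as the only cell library, were added after seeing the data.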

Additional observations from a re-analysis of the deposited data

How the results depend on the processing

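Each fit of 9 or fewer libraries rests on at most 6 residual degrees of freedom, and genes such as Igf2, with 2 to 16 counts a library, are limited by counting error. Where a single library is left in a group it is assumed to vary like the other groups. Between cells and ligation, the log2 difference of H19 lay between -0.56 and -0.41 without single libraries and was -0.49, not past the threshold, with cell replicate 1 as the only cell library. There 1 member passed with all libraries, 0 to 1 without single libraries, and 0 with cell replicate 1 alone (1 at an unadjusted p under 0.05 by edgeR). The count was 0 without cell replicate 2 (1 unadjusted) or ligation replicate 2 (3 unadjusted), and 1 with DESeq2 and limma-voom on all libraries. Of other imprinted genes, 4 passed there, but 1 with DESeq2, 2 with cell replicate 1 alone, 2 with library totals and 1 to 4 without single libraries. Of imprint control proteins, 2 passed there, but 1 with DESeq2, 0 with cell replicate 1 alone (3 unadjusted) and 0 to 2 without single libraries, the 0 arising without cell replicate 1, cell replicate 2 (2 unadjusted each) or ligation replicate 3 (3 unadjusted).

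Between ligation and sham, imprint control proteins passed in 1 case with DESeq2, 1 with summed header stems and 1 to 3 without single libraries, and other imprinted genes in 8 to 12, with 8 arising without ligation replicate 2. Between cells and sham, 9 other imprinted genes passed with cell replicate 1 alone. Signs turned for Ndn between ligation and sham (0.14 with library totals, -0.11 to 0.0394 without single libraries), and between cells and ligation for Grb10 (-0.16 to 0.00597) and Plagl1 (-0.33 to 0.00147) without single libraries. Igf2 between cells and sham was -1.77 and missed the threshold with cell replicate 1 alone. Between cells and sham, calls were gained for Meg3 (0.43) and Grb10 (0.33) with library totals, for Grb10 without cell replicate 2 (0.26), and for Plagl1 without sham replicate 1 (-0.75) and with cell replicate 1 alone (-1.07). The causes were not tested. Of 937 values under settings other than leaving out a library, 838 kept their direction and side of the threshold, or, for counts of genes, stayed within 1.5 times the count reported, and 99 did not.

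The replicate numbers did not pair the libraries: same-numbered libraries correlated at -0.12 to 0.14 in their deviations from group means (9414 genes), and a library correlated best with its own number in 5 of 18 cases. With the replicate number as a block, 2 other imprinted genes in place of 4 passed between cells and ligation, while H19 stood at -1.59, -0.50 and -2.09 in the 3 comparisons.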
